A study of Homo sapiens with 4 samples.

Results

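The 44 genes described here encode matrix-degrading metalloproteinases and their inhibitors: 22 matrix metalloproteinases (MMP), 19 ADAMTS proteinases and 3 tissue inhibitors of metalloproteinases (TIMP). They were chosen as gene families out of 20163 protein-coding genes. For each gene, every differentially methylated tile of 1000 bp that overlapped the gene's span or the 5 kb on either side was collected from the authors' deposited tables. Together the genes held 203 of the 72455 tiles listed in any of the 3 tables. By table these were 152 of 51243 tiles for shC-S against sh-LY75-S (knockdown), 71 of 28282 for LY75-R-S against LY75-KO-S (knockout) and 59 of 20986 for the mix of both.

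MMPs are zinc-dependent endopeptidases that are made as inactive precursors and cleave collagens, gelatins, laminins and other matrix proteins once their propeptide is removed. ADAMTS proteinases share this catalytic core, carry thrombospondin repeats that bind them to the matrix, and process procollagens, proteoglycans and other matrix proteins. TIMPs bind the active site of these enzymes and block it, and TIMP3 also inhibits several ADAMTS enzymes. In ovarian cancer, gelatinases and membrane-type MMPs are known for their part in invasion, and methylation at a CpG-rich promoter is often, but not always, accompanied by low expression of the gene.

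Methylation was measured by reduced representation bisulfite sequencing (RRBS) in the human ovarian cancer cell line SKOV3, with 1 library from each of 4 clones and no replicates. Of the M (mesenchymal) clones, shC-S had a control shRNA and LY75-R-S had LY75 re-expressed in the LY75 knockdown cells. Of the E (epithelial) clones, sh-LY75-S had an shRNA against the endocytic receptor LY75 and LY75-KO-S a CRISPR inactivation of LY75. LY75-R-S thus also carries the LY75 shRNA, and each condition is a selected clone, so that the effect of LY75 and differences between clones cannot be told apart. The knockdown comparison set shC-S against sh-LY75-S and the knockout comparison LY75-R-S against LY75-KO-S. The mix set both M clones against both E clones, so it shares its libraries with these single comparisons. Each value below is a difference in percent methylation between libraries, in percentage points, and positive values were taken to mean more methylation in the E clones (hypermethylation in SKOV3-E cells). For the knockout comparison this order rests on the composition of the mix, whose differences over the 4250 tiles in all 3 tables were fitted as 0.534 times those of the knockdown comparison plus 0.435 times those of the knockout comparison. Both factors are positive, which gives the knockout comparison the same order as the knockdown comparison and the mix. As deposited, however, the knockout comparison names its E clone first, whereas the others name the M side first. The fit cannot show which order the 3 share, and that all are E minus M was assumed. The opposite order in all 3 would turn every sign given here, but not whether the single comparisons had the same direction. The tables list tiles past the thresholds alone (25 points or more, q-value under 0.01), without methylation per library or numbers of reads. The depth behind a difference is therefore unknown, a tile that is not listed may be unchanged or unmeasured, and no test between conditions was possible.

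RRBS reads begin at MspI sites (CCGG), so that the sequence of a gene decides which of its CpGs can be measured. The upstream windows of 4 genes that had a listed tile over the start site are shown first, on GRCh37 (hg19), 5′ to 3′ on the strand of the gene, with each CpG in capitals. No tile that holds the start site itself differed by over 50 points, so these windows were chosen after the values had been seen. For MMP25 the window (chr16:3095763-3096062) ends at the outermost annotated start, and its tiles were at 73.1 and 40.3 points in the knockdown comparison. For TIMP3 (chr22:33197391-33197690, difference of -39.6 points), ADAMTS18 (chr16:77468932-77469231, 34.4 and 37.2 points in its tiles) and ADAMTS20 (chr12:43946007-43946306, 25.2 points) it ends at the start site of the canonical transcript.
MMP25 upstream: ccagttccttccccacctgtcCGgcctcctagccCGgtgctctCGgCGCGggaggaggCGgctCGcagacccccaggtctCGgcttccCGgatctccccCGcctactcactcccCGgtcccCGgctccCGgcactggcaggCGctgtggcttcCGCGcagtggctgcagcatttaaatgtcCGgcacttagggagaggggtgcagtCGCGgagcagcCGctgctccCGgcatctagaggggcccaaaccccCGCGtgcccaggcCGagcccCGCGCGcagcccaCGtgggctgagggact
TIMP3 upstream: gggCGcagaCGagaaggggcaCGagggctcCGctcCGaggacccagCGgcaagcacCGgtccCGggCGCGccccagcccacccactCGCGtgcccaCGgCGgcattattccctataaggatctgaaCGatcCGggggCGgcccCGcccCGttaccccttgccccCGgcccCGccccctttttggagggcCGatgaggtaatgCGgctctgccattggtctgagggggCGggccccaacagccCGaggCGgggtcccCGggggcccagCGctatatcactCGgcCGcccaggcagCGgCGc
ADAMTS18 upstream: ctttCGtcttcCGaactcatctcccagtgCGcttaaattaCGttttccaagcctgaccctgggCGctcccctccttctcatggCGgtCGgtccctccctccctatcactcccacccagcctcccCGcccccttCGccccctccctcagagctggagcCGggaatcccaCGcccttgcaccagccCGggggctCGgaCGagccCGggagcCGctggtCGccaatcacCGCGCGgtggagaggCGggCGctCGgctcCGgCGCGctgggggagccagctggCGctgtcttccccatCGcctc
ADAMTS20 upstream: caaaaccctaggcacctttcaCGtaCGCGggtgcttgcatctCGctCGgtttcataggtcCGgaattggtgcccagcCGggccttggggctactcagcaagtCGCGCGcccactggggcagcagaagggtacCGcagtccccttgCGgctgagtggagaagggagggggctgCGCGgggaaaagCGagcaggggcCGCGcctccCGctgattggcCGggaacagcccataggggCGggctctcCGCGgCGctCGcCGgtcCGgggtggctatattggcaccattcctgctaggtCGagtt
The windows held 28, 32, 28 and 27 CpGs, in the order shown, where the median over 19881 protein-coding genes was 21. They held 8, 5, 4 and 5 copies of CCGG, a palindrome that reads alike on both strands, and 74.8% of all such windows hold at least 1.

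Other tiles rested on far fewer CpGs. Fragments between neighbouring MspI sites are shown for 4 tiles that were listed in both single comparisons and differ in how these compared, again in the direction of the gene with CpGs in capitals. MMP12 (chr11:102744399-102744498) and ADAMTS2 (chr5:178753244-178753431) had the same direction in both, and ADAMTS12 (chr5:33735281-33735436) and TIMP3 (chr22:33235859-33235991) opposite directions.
MMP12 fragment: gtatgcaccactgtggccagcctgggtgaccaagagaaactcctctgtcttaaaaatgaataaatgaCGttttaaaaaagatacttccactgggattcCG
ADAMTS2 fragment: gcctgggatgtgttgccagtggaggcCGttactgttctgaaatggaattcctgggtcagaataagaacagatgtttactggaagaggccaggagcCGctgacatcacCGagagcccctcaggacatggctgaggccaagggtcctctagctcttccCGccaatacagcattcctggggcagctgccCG
ADAMTS12 fragment: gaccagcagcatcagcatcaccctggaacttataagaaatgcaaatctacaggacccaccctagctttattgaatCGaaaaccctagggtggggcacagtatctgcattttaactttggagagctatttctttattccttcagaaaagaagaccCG
TIMP3 fragment: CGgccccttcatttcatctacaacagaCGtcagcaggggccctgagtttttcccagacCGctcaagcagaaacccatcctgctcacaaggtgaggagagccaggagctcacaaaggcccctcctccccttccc
Reads of 50 bases from the fragment ends reach 2 CpGs in the tile of MMP12, 3 in that of ADAMTS2, 1 in that of ADAMTS12 and 3 in that of TIMP3. For TIMP3 they include 1 CpG of the neighbouring fragment (chr22:33235992-33236041, not shown), while the last CpG of the fragment shown lies beyond the reads. All these fragments lie outside annotated exons.

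In the knockdown comparison, 34 of the 44 genes had a listed tile, against 60.3% of all protein-coding genes. The knockout comparison gave 26 genes (background 46.8%), and in the mix 25 (background 38.2%). The ADAMTS genes were covered most widely, with 18 of 19 genes in the knockdown comparison and 16 in each of the other comparisons. Of the 22 MMP genes 14 had a tile in the knockdown comparison, and 8 in each of the other comparisons. Among the TIMP genes, TIMP2 and TIMP3 had tiles and TIMP4 had none. A tile in each single comparison, though not always the same tile, was found for 26 genes, and a tile in each of the 3 tables for 22. The matching shares of all protein-coding genes were not counted, so these numbers have no background beside them. Both directions occurred in 18 genes in the knockdown comparison, while 11 genes had hypermethylated tiles alone and 5 hypomethylated tiles alone. For the knockout comparison these numbers were 11, 13 and 2. These counts by direction depend on the number of tiles per gene, and they too have no background beside them.

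**Figure D1:**
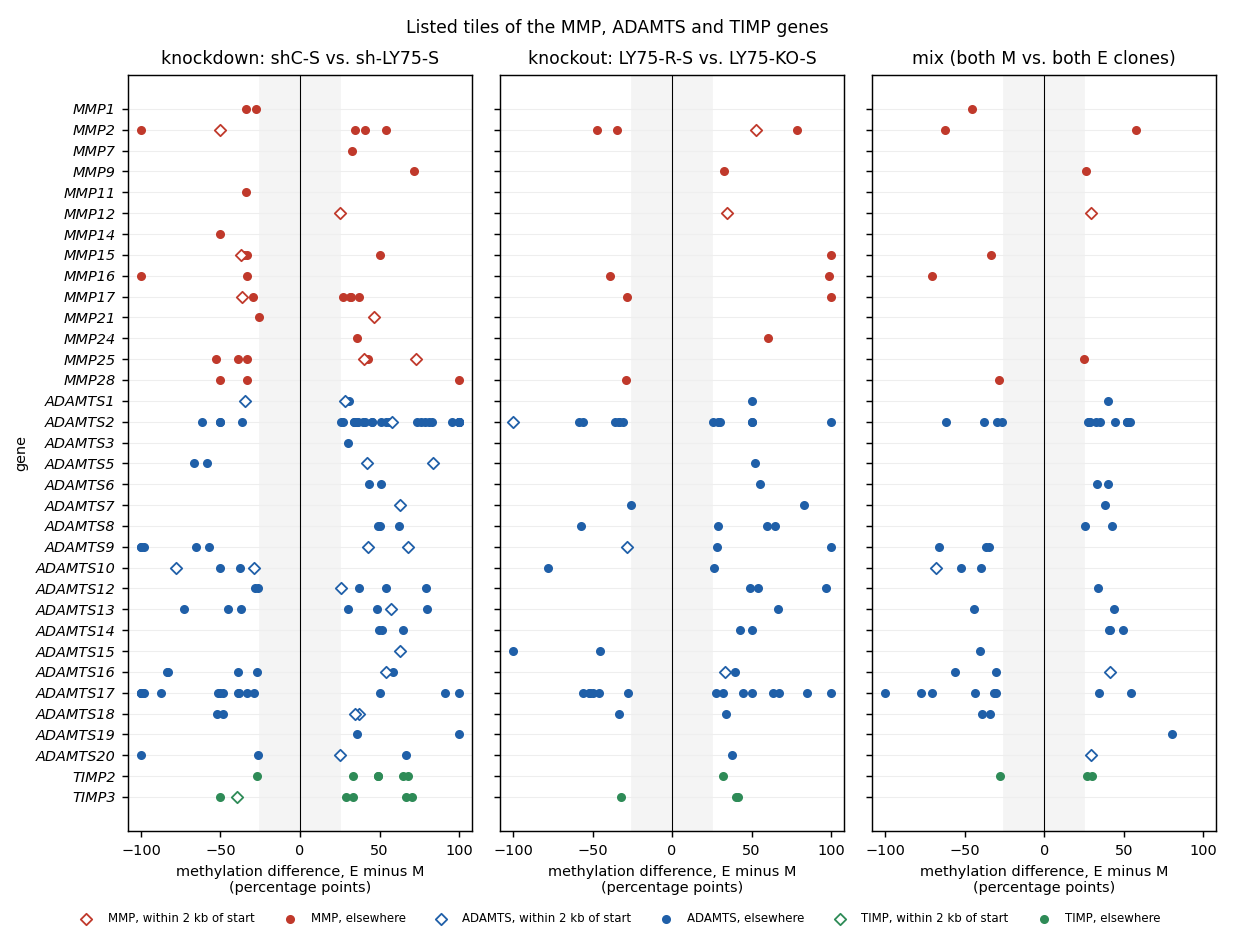
Methylation difference (E minus M, percentage points, x axis) of every listed tile of the 34 genes with a tile (y axis), in the 3 comparisons. Open diamonds are tiles within 2 kb of the canonical start site, filled circles all others, colours mark the families, and no tile falls in the grey band below 25 points. ADAMTS2 is mostly to the right and ADAMTS17 mostly to the left in the knockdown comparison, but not in the knockout comparison.

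The direction of change was counted by family and comparison. In the knockdown comparison, 88 of 152 tiles (57.9%, 95% Wilson interval 49.95 to 65.45%) were hypermethylated in SKOV3-E cells, where all listed tiles gave 64.7%. By family this was 17 of 36 MMP tiles (47.2%, interval 32.0 to 63.0%), 62 of 104 ADAMTS tiles (59.6%, interval 50.0 to 68.5%) and 9 of 12 TIMP tiles (75.0%, interval 46.8 to 91.1%). In the knockout comparison, 45 of 71 tiles (63.4%, interval 51.8 to 73.6%) were hypermethylated, against 54.7% of all tiles. In the mix it was 31 of 59 (52.5%, interval 40.04 to 64.7%), against 65.0%. The intervals of the families overlap in each comparison. They cover counting error only, and are too narrow where tiles of 1 gene change together.

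The size of the differences also varied among the families, which was not tested. The median absolute difference in the knockdown comparison was 36.9 points over MMP tiles, 51.8 over ADAMTS tiles and 49.0 over TIMP tiles, and 50.0 over all listed tiles. Differences over 50 points made up 7 of 36 MMP tiles (19.4%), 55 of 104 ADAMTS tiles (52.9%) and 4 of 12 TIMP tiles, beside 48.1% of all listed tiles. In the knockout comparison the medians were 47.1 points for MMP and 50.0 for ADAMTS tiles, closer to each other than in the knockdown comparison, with 41.9 over all tiles. In the mix they were 33.3 and 40.2 points, with 36.9 over all tiles. For differences over 50 points the order of the families turned, with 6 of 13 MMP tiles (46.2%) and 23 of 54 ADAMTS tiles (42.6%) in the knockout comparison. In the mix it was 3 of 9 (33.3%) and 13 of 47 (27.7%), so the order rests on few MMP tiles in both.

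Long genes and genes rich in MspI sites hold more measurable tiles, so the listed tiles were also set against those that MspI fragments of 40 to 220 bp could reach. The spans of the 44 genes held 777 such tiles, 513 of them in ADAMTS, 204 in MMP and 60 in TIMP genes. Of these, 145 (18.7%, interval 16.1 to 21.55%) were listed in the knockdown comparison, compared with 11.8% of 237019 reachable tiles of all protein-coding genes. In this comparison the families gave similar shares, 17.2% for MMP, 19.3% for ADAMTS and 18.3% for TIMP genes. In the knockout comparison the share was 8.49% (interval 6.73 to 10.7%, all protein-coding genes 6.16%) and in the mix 7.08% (interval 5.48 to 9.10%, all protein-coding genes 4.88%). By family, ADAMTS genes gave 9.55% and 8.38%, MMP genes 6.37% and 4.41%, and TIMP genes 6.67% and 5.0%, in this order of comparisons. The MMP shares were thus close to those of all protein-coding genes, and in the mix slightly below. By CpG number, the ADAMTS share in the knockdown comparison lay above that of protein-coding genes in all 4 classes, from 16.6% against 10.3% at 15 to 29 CpGs per tile to 28.1% against 15.9% at 60 CpGs or more. The MMP share was 4.55% at 15 to 29 CpGs, below the 10.3% of protein-coding genes, and 31.7% at 30 to 59 CpGs, above their 15.1%.

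**Figure D2:**
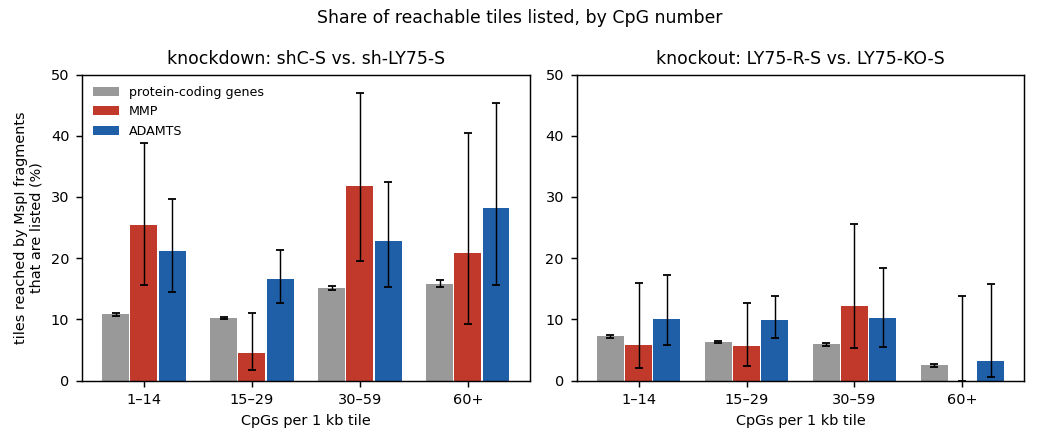
Share of tiles reachable by MspI fragments that were listed (y axis, percent), by the number of CpGs per tile (x axis), for all protein-coding genes, MMP and ADAMTS genes in the single comparisons. Bars are shares and error bars 95% Wilson intervals (counting error only). The ADAMTS bars stand above the grey bars in every class, but their intervals in the knockout comparison are wide, as with 3.13% of 32 tiles at 60 CpGs or more.

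The 10 genes without any listed tile were ADAMTS4, TIMP4, MMP3, MMP8, MMP10, MMP13, MMP19, MMP20, MMP26 and MMP27. Between them they held 42 reachable tiles, at most 13 for 1 gene, while ADAMTS2 alone held 115. Among them are the stromelysins MMP3 and MMP10 and the collagenases MMP8 and MMP13. MMP3 and MMP10 had no reachable tile, so fragments of this size cover no CpG in them. Both belong to the cluster of 9 MMP genes on chromosome 11, whose spans held 15 reachable tiles, and 3 of these 9 genes had a listed tile (MMP1, MMP7 and MMP12).

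Of the collagenases, which cut fibrillar collagen, MMP1 alone had tiles. It was at -34.1 points over an exon and at -27.5 points beyond its 3′ end in the knockdown comparison, and the exon tile was at -45.5 points in the mix. The gelatinase MMP2, which degrades denatured and basement membrane collagen, had tiles of both signs. Its tile over the last exon (chr16:55539001-55540000) was at -100 points in the knockdown comparison, -47.1 in the knockout comparison and -62.1 in the mix. Near its canonical start, a tile 891 bp downstream was at -50.0 points in the knockdown comparison and another, 110 bp upstream, at 53.0 points in the knockout comparison, so the start region was not listed at the same place in both. MMP2 tiles far upstream, in the intron of a longer annotated transcript, were hypermethylated by 34.5, 54.0 and 41.1 points in the knockdown comparison. The other gelatinase, MMP9, had a tile of 71.4 points 4547 bp upstream of its start in the knockdown comparison (26.4 points in the mix) and an exon tile of 32.5 points in the knockout comparison.

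All 6 membrane-type MMPs, which act at the cell surface and activate other MMPs, had tiles in the knockdown comparison, 9 hypermethylated and 11 hypomethylated. MMP25 was at 73.1 and 40.3 points in the tiles before and over its start, its gene body held tiles of -52.9, -33.3 and -38.7 points, and a tile beyond its 3′ end was at 43.0 points. MMP15 was at -37.4 points within 2 kb downstream of the start and at -35 and -33.3 points over exons, with a single positive tile of 50.0 points beyond its 3′ end. MMP17 was at -36.4 points within 2 kb downstream of the start and at -29.4 points in the next tile, and its other tiles were positive, by up to 37.4 points. MMP14, the activator of pro-MMP2, had a single tile of -50.0 points in an exon, and MMP24 a single intron tile of 35.7 points. MMP16 had an intron tile (chr8:89250001-89251000) at -100 points in the knockdown comparison, -39.1 in the knockout comparison and -70.6 in the mix. In the knockout comparison the largest MMP differences were 100 points in an exon of MMP17, 100 points beyond the 3′ end of MMP15 and 98.8 points in another intron tile of MMP16.

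The remaining MMPs had few tiles. The macrophage elastase MMP12 had 1 tile, in its first intron 712 bp from the start, with 25.04 points in the knockdown comparison, 34.3 in the knockout comparison and 29.3 in the mix. The tile of the knockdown comparison lies at the threshold of 25 points. MMP21 had tiles of 46.6 points near its start and -26.1 points in an exon, in the knockdown comparison alone. MMP28 held an intron tile at 100 points with 1 reachable CpG, beside tiles of -33.4 and -50.0 points. The matrilysin MMP7 had 1 intron tile of 32.9 points and the stromelysin MMP11 1 upstream tile of -34.2 points, which overlaps the neighbouring gene CHCHD10.

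The procollagen N-proteinases among the ADAMTS enzymes trim the ends of fibrillar procollagens. In the knockdown comparison, 30 of their 34 tiles were hypermethylated (88.2%, interval 73.4 to 95.3%), where all listed tiles gave 64.7%. The knockout comparison gave 8 of 15 (53.3%, interval 30.1 to 75.2%), against 54.7% of all tiles. Most of these tiles were in ADAMTS2, with 26 of 30 hypermethylated in the knockdown comparison and 6 of 13 in the knockout comparison. The intervals treat tiles of 1 gene as independent, and are too narrow where these change together. Without ADAMTS2, 36 of the other 74 ADAMTS tiles (48.6%, interval 37.6 to 59.8%) were hypermethylated in the knockdown comparison. ADAMTS2 had tiles at 100 points in introns, in exons and beyond its 3′ end, and a run of 3 adjacent tiles at chr5:178700001-178703000 with 100, -61.6 and 36.2 points, the only run of 3 or more in these genes. The ADAMTS2 intron tile whose fragment is shown above (chr5:178753001-178754000) was at 100 points in both single comparisons. A tile 539 bp upstream of its start was at -100 points in the knockout comparison. ADAMTS14 was hypermethylated in every tile listed, by 49.7, 51.9 and 64.5 points in the knockdown comparison and by 42.6 and 50.0 points in the knockout comparison, always over exons. ADAMTS3 had 1 intron tile of 30.4 points.

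ADAMTS17, which belongs to the ADAMTS proteinases linked to fibrillin microfibrils, went the other way in the knockdown comparison. Of its 16 tiles 13 were hypomethylated, 3 of them by 100 points, against 6 of 14 in the knockout comparison. The tile at chr15:100604001-100605000, at -100 points in the knockdown comparison, held 0 reachable CpGs. An intron tile 2180 bp from the start (chr15:100879001-100880000), was at -100 points in the knockdown comparison, -51.9 in the knockout comparison and -77.3 in the mix. ADAMTS10, which also binds fibrillin, was hypomethylated in all 4 tiles of the knockdown comparison, with -77.9 points 600 bp downstream of the start, -28.8 over the start, and -37.8 and -50.0 over exons further on. In the knockout comparison its 2 tiles, both over exons, were at -77.8 and 26.5 points. ADAMTS6, ADAMTS16, ADAMTS18 and ADAMTS19, together with ADAMTS10 and ADAMTS17, gave 11 of 34 hypermethylated tiles (32.4%, interval 19.1 to 49.2%) in the knockdown comparison and 13 of 21 (61.9%, interval 40.9 to 79.3%) in the knockout comparison. ADAMTS17 alone supplied 16 of these 34 tiles in the knockdown comparison, and 13 of the 23 that were hypomethylated. ADAMTS19 had an intron tile at 100 points in the knockdown comparison and 80.7 in the mix. ADAMTS16 combined 54.1 points 443 bp upstream of its start with -83.2 and -83.3 points in introns.

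**Figure D3:**
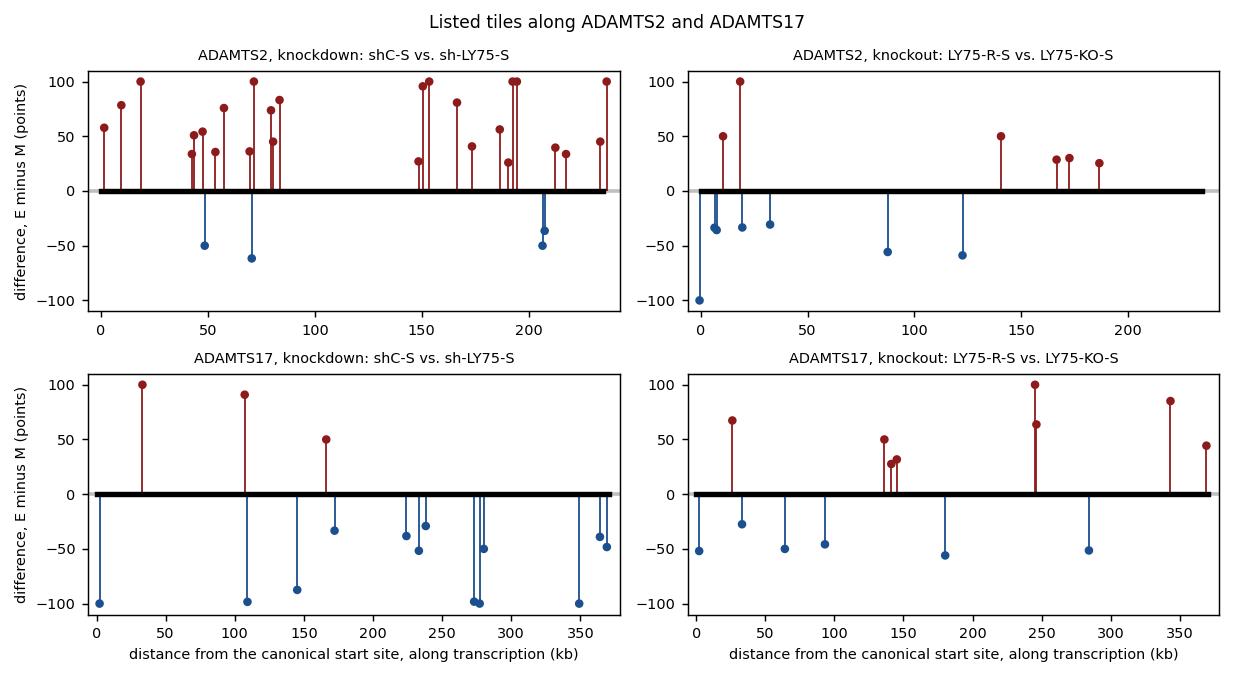
Difference (E minus M, percentage points, y axis) of each listed tile along ADAMTS2 and ADAMTS17 (x axis, kb from the canonical start site in the direction of transcription) in the single comparisons. Each line is 1 tile, and the black bar marks the gene. In the knockdown comparison 26 of 30 ADAMTS2 tiles point up and 13 of 16 ADAMTS17 tiles point down, spread over the whole of both genes.

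The proteoglycanases, which cleave aggrecan and versican, gave 12 of 22 hypermethylated tiles in the knockdown comparison and 8 of 12 in the knockout comparison. ADAMTS9 changed in opposite directions at its ends. Its start region was hypermethylated by 68.1 and 42.6 points in the knockdown comparison, whereas 3 tiles towards its 3′ end were at -99.7, -97.9 and -100 points. ADAMTS5, the main aggrecanase in mouse cartilage, likewise had 83.3 and 42.2 points within 2 kb downstream of the start and -66.7 and -58.6 points over exons further downstream. ADAMTS15 had 62.9 points near the start in the knockdown comparison and 2 exon tiles of -45.1 and -100 points in the knockout comparison. Its tile at -100 points held 0 reachable CpGs. ADAMTS8 was hypermethylated in all 3 tiles of the knockdown comparison, by 50.0, 62.3 and 49.1 points, and in 3 of 4 of the knockout comparison. ADAMTS1 had an exon tile of 30.5 points in the knockdown comparison and 50.0 in the knockout comparison, and tiles of 28.5 and -34.7 points on either side of its start. ADAMTS20 ranged from -100 points in an exon tile with 0 reachable CpGs to 66.7 points in an intron tile. ADAMTS7 and ADAMTS12, which cleave cartilage oligomeric matrix protein, had 5 of 7 hypermethylated tiles in the knockdown comparison and 4 of 5 in the knockout comparison. ADAMTS13, which cleaves von Willebrand factor, had 4 of 7 hypermethylated tiles in the knockdown comparison, from -72.9 to 79.9 points.

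Tiles within 2 kb of a canonical start site were found for 19 of the 44 genes (43.2%) in the knockdown comparison, where 26.9% of protein-coding genes had one. The knockout comparison had 5 such genes (11.4%, background 11.7%) and the mix 4 (9.09%, background 13.3%). Hypermethylation was the commoner direction at ADAMTS starts in the knockdown comparison, with 14 of 17 tiles (82.4%, interval 58.97 to 93.8%), compared with 54.7% of the 6580 listed tiles within 2 kb of any protein-coding start. These tiles lie in 12 genes, of which 11 had a hypermethylated tile, the exception being ADAMTS10. At MMP starts 4 of 7 tiles in 6 genes were hypermethylated. TIMP3 had the single TIMP tile, at -39.6 points over its start. ADAMTS7 and ADAMTS13 were hypermethylated near the start by 63.1 and 57.5 points, and the ADAMTS7 tile also overlaps the neighbouring gene MORF4L1. In the knockout comparison just 1 of the 3 ADAMTS start tiles was hypermethylated (ADAMTS16, 33.3 points). Of the 17 ADAMTS start tiles of the knockdown comparison, the tile of ADAMTS9 alone was listed in the knockout comparison, with the opposite sign (-28.1 points).

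**Figure D4:**
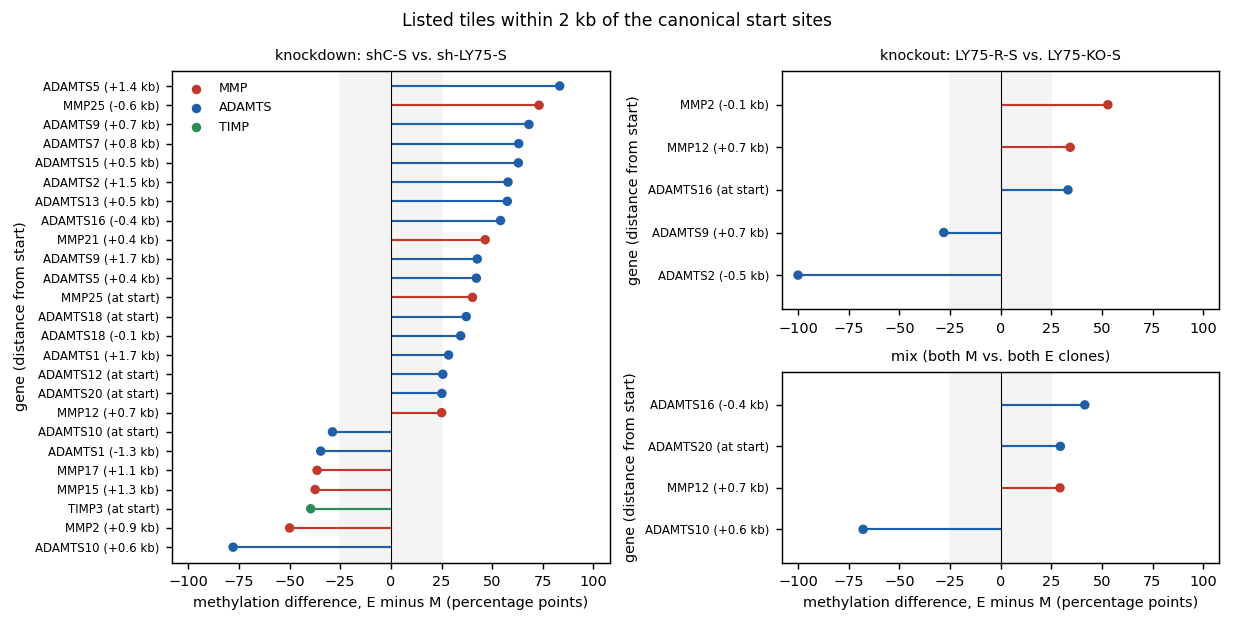
Difference (E minus M, percentage points, x axis) of each listed tile within 2 kb of a canonical start site, with the gene and the distance of the tile's nearest base from the start in kb (y axis). Points are single tiles and colours mark the families. In the knockdown comparison 18 of 25 tiles lie to the right of 0, from MMP12 at 25.04 to ADAMTS5 at 83.3 points.

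The single comparisons share no library, but LY75-R-S was made from sh-LY75-S cells, so they are not independent. They listed 21 tiles of these genes in common. Of these 13 (61.9%, interval 40.9 to 79.3%) had the same direction, 8 hypermethylated and 5 hypomethylated, where 52.6% of 8345 tiles in the whole tables did. The interval holds the share of all tiles. With the knockout comparison alone turned round the share would be 38.1%, but both single comparisons entered the fit to the mix with positive factors. All 3 MMP tiles had the same direction, those of MMP2, MMP12 and MMP16. Among ADAMTS genes 10 of 16 had the same direction, in ADAMTS1, ADAMTS2, ADAMTS8, ADAMTS10, ADAMTS12, ADAMTS14, ADAMTS17 and ADAMTS18. ADAMTS2 supplied 3 of these, with 56.3, 80.8 and 100 points in the knockdown comparison and 25.4, 28.6 and 100 points in the knockout comparison. ADAMTS14 had nearly equal values, 49.7 and 50.0 points, and ADAMTS18 had -52.3 and -33.6 points in an exon tile.

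**Figure D5:**
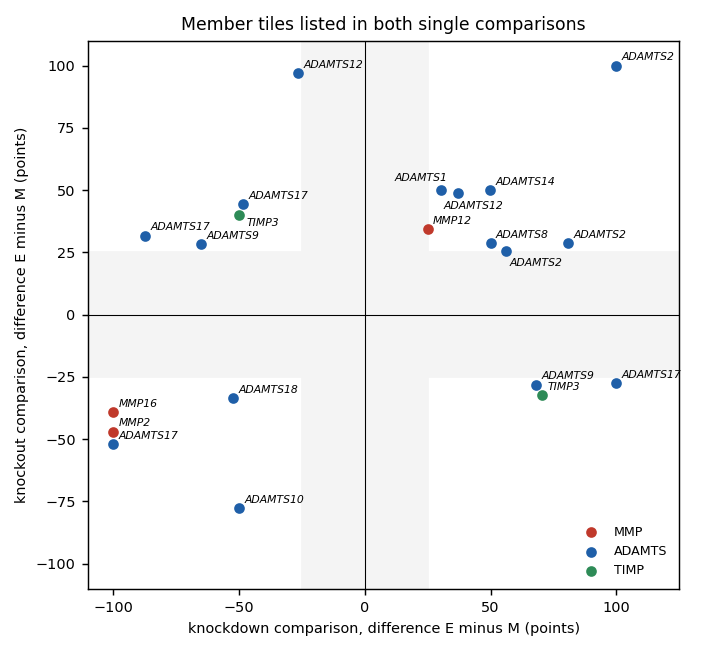
Difference in the knockdown comparison (x axis) against that in the knockout comparison (y axis), both E minus M in percentage points, for the 21 tiles listed in both. Each point is 1 tile, the grey bands mark the range below the threshold of 25 points, and colours mark the families. The 13 tiles of the same direction lie at the upper right and lower left, and both TIMP3 tiles at the upper left and lower right.

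TIMP2, an inhibitor that also takes part in pro-MMP2 activation at the cell surface, had 5 of 6 hypermethylated tiles in the knockdown comparison. The largest was 68.0 points, 4532 bp upstream of its start, and the same tile was at 30.3 points in the mix. TIMP3, which lies within an intron of SYN3 on the other strand, had 4 of 6 hypermethylated tiles in the knockdown comparison and 2 of 3 in the knockout comparison. Its tiles cannot be assigned to TIMP3 rather than SYN3. In the intron tile at chr22:33235001-33236000 the difference was 70.6 points in the knockdown comparison and -32.2 in the knockout comparison, and in that at chr22:33225001-33226000 it was -50.0 and 40 points.

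A list of 35 other genes of the pericellular proteolysis pathway (ADAM proteinases, ADAMTS-like proteins, plasminogen activators and their inhibitors, and ADAMTS substrates) was treated in the same way. In the knockdown comparison 28 of them (80%, background 60.3%) had a tile, 8 hypermethylated alone, 10 hypomethylated alone and 10 in both directions. The knockout comparison gave 20 (57.1%, background 46.8%), split 8, 6 and 6, and in the mix 14 (40%, background 38.2%), split 6, 4 and 4. The backgrounds are for having a tile, and the splits by direction have none. RECK, PLAT, MMP23B and TIMP1 had 1 tile in each single comparison, not necessarily the same one. RECK, a membrane-bound MMP inhibitor, was at -26.04 (near the threshold) and -57.2 points, and PLAT, the tissue plasminogen activator, at 77.6 and 42.2 points. The signs were opposite for MMP23B (32.6 and -29.7 points) and TIMP1 (33.6 and -34.6 points).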

How the data were processed

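RRBS was performed on 1 library of each of 4 SKOV3 clones. The knockdown comparison is that of shC-S with sh-LY75-S and the knockout comparison that of LY75-R-S with LY75-KO-S. According to the submitters' processing notes, reads were trimmed with Trim Galore 0.4.1, aligned with Bismark 0.16.1 to hg19 and compared with methylKit. The authors deposited 3 tables of tiles of 1000 bp, each with a p-value, a q-value and a score, which is the methylation difference in points. The deposited tables hold these columns alone, which are the authors' own comparisons of libraries. They were used here since the genes could not be described otherwise, and no p-value is printed. All listed differences reached 25 points with a q-value under 0.01. This is stricter than the adjusted p-value that the study's methods name. Coverage minimum, depth and methylation per library are not given in the sources used here, so precision per tile is unknown.

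Spans, canonical transcripts and exons came from GENCODE release 44 for GRCh37, and all tiles lay within its chromosomes. A start-site tile lies within 2 kb of the canonical start. Canonical starts were known for 19881 of 20163 protein-coding genes. Reachable tiles hold a CpG within 50 bases of the end of an MspI fragment of 40 to 220 bp in the reference. Shares carry 95% Wilson intervals, which cover counting error only, and overlap and interval functions were tested on simulated data. Every gene was counted, and tiles were named when within 2 kb of a start, listed in both single comparisons, among the 3 largest of a family and table, or in runs of 3 or more. Other tiles in the text were chosen after their values were seen. The genes, lists and alternatives were chosen with earlier results of these data known. Computations used Python 3.11.15 with pandas 2.3.3, numpy 2.4.6, pysam 0.24.0, scipy 1.17.1 and matplotlib 3.10.9.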

Additional observations from a re-analysis of the deposited data

Results flagged for a closer look

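In 8 tiles listed in both single comparisons the differences had opposite directions, with 1 library per clone, and this was not tested. LY75-R-S, the M clone of the knockout comparison, was made from cells of sh-LY75-S, the E clone of the knockdown comparison. The comparisons are therefore not independent. Each tile is given with the value of the knockdown comparison first and that of the knockout comparison second. ADAMTS12 had -26.5 and 97.1 points in an intron tile. ADAMTS17 had -48.3 and 44.3 points over its last exon. Inside its introns ADAMTS17 had -87.5 and 31.8 points in one tile and 100 and -27.5 points in another, which held 0 reachable CpGs. ADAMTS9 had -65.3 and 28.2 points in an exon tile and 68.1 and -28.1 points near its start. TIMP3 had -50.0 and 40 points in one intron tile and 70.6 and -32.2 points in another. In each of these tiles, at least one of the values lay within 25 points of the threshold. The order of subtraction in the knockout comparison was read from the mix, in whose fit both single comparisons had positive factors. With the opposite order in the knockout comparison alone, these 8 tiles would have the same direction and the other 13 opposite directions.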

How the results depend on the processing

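Of 103 values under alternative settings 77 stayed within the interval of the main value, or within 1.5 times for counts, and 26 did not. Flanks of 0, 2 and 10 kb, leaving out tiles over another protein-coding gene and counting runs once moved no value past these limits. Values are given for the knockdown comparison, the knockout comparison and the mix, in this order where all are named. Over 50 points, the median absolute difference was 74.8, 66.7 and 61.8 points by construction, 16 genes had a tile in the knockout comparison and 8 in the mix, and 37.5% of mix tiles were hypermethylated. At 70 points or more, 16, 11 and 3 genes had a tile, the median was 98.0, 100 and 77.3 points, and the hypermethylated share was 76.9% in the knockout comparison and 20% in the mix. The same-direction share was then 100% at both thresholds, of 2 tiles and 1 tile. With a q-value under 1e-10 the median of the knockout comparison was 52.45 points. Within 2 kb of any start site of these genes, 71.4%, 75.0% and 66.7% of tiles were hypermethylated, in 19, 8 and 5 genes, with a median of 39.9 points in the knockdown comparison. With the opposite order of subtraction in the knockout comparison alone, 36.6% of its tiles were hypermethylated and the same-direction share was 38.1%. The positive factors in the fit to the mix go against such an order. Alternatives without ADAMTS2, ADAMTS17 or the MMP cluster were added after seeing the data. Without ADAMTS2 the hypermethylated share of the knockdown comparison was 50.8%, and without ADAMTS17 62.5%. No paired analysis was possible because the tables hold comparisons and no values per library, and for the same reason no library could be left out and no coverage minimum varied.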

Other observations

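Among the ADAMTS-like proteins, which resemble ADAMTS enzymes but lack the catalytic domain, ADAMTSL2 was hypermethylated in all 13 tiles of the knockdown comparison, from 28.4 to 90.8 points, and in 5 of 6 tiles of the knockout comparison. ADAMTSL1 was hypomethylated in all 5 tiles of the knockdown comparison, from -53.0 to -100 points, whereas 7 of 9 of its tiles were hypermethylated in the knockout comparison. ADAMTSL3 and ADAMTSL4 likewise had 2 hypomethylated tiles each in the knockdown comparison and 2 hypermethylated tiles each in the knockout comparison. These reversals were not tested, and the comparisons are not independent, since LY75-R-S was made from sh-LY75-S cells. ADAMTSL5 had tiles of -31.3 and 96.9 points in the knockdown comparison and 2 hypermethylated tiles in the knockout comparison. The related PAPLN was hypermethylated in 6 of 7 and 3 of 3 tiles. Of all listed tiles, 64.7% were hypermethylated in the knockdown comparison and 54.7% in the knockout comparison.

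Among the proteoglycans that ADAMTS enzymes cleave, ACAN (aggrecan) was hypermethylated in all 6 tiles of the knockdown comparison, from 61.9 to 100 points, and in 3 of 4 tiles of the knockout comparison. VCAN (versican) had 2 tiles of -72.5 and -100 points in the knockdown comparison, and BCAN (brevican) 3 tiles from -26.1 to -79.5 points, with none in the knockout comparison. NCAN (neurocan) had 3 tiles from -87.0 to 37.5 points in the knockdown comparison, 1 of them hypermethylated, and 2 of 4 hypermethylated in the knockout comparison. The urokinase receptor PLAUR was hypomethylated in all 3 tiles of the knockdown comparison and in its single tile of the knockout comparison (-42.6 points). TIMP1 had 1 tile in each single comparison, at 33.6 and -34.6 points.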
